A study of Mus musculus with 2 samples.

Results

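The cells described here carried Ecscr and Myb RNA together in the mouse yolk sac, and there were 56 of them among 1634 kept barcodes. They were chosen by 6 limits on unique molecular identifiers (UMIs, single counted RNA molecules): at least 3 of Ecscr, at least 1 of Myb, and fewer than 10 summed over the endothelial genes Cldn5, Plvap and Ramp2. Pf4 had to be under 3 UMIs, the embryonic globins Hbb-y, Hbb-bh1 and Hba-x under 5% of a cell's UMIs, and the collagens Col1a1, Col1a2 and Col3a1 under 10 per 10000. A barcode entered if it showed 500 genes or more and had no more than 10% of its UMIs from mitochondrial genes. The mutant library held 47 of the cells and the wild-type library 9. Levels of the genes in these limits are given as a description only, because the limits set them.

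The study made 1 droplet library from wild-type (WT) yolk sacs and 1 from Baf155 CKO yolk sacs, both of the B6 strain, with RNA read from the 5′ end on a HiSeq2500. Each library mixed yolk sacs from as many embryos of stage E9.5 as of stage E10.5, which were dissociated with collagenase, frozen and thawed, and live Ter119-negative cells were sorted, which leaves out most red cells. The stage of a single cell is unknown. Baf155 is the protein of Smarcc1, a core subunit of the BAF chromatin remodelling complex. The title of the mutant sample says KO and its other labels say CKO, and the labels speak of nuclei while the protocol describes live cells. The sources used here do not give the Cre driver, the deleted exon or the number of embryos. With 1 library per genotype there was no replicate and no test, so the genotype and the library cannot be told apart. Intervals are 95% and cover counting error only.

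Blood cells of the early yolk sac arise from haemogenic endothelium, vessel-lining cells that switch on the transcription factor Runx1, lose endothelial junctions and leave the vessel wall. The erythromyeloid progenitors made in this way express Kit, Cd34 and Myb and later give red cells, megakaryocytes, macrophages and granulocytes. Ecscr is an endothelial surface protein, Myb a transcription factor of definitive blood progenitors, Sox17 a transcription factor of arterial and haemogenic endothelium, and Gja4 a gap junction protein of arterial endothelium.

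The Ecscr+ Myb+ cells made up 5.55% of the kept CKO barcodes (47 of 847, exact Clopper-Pearson interval 4.11% to 7.31%) and 1.14% of the WT barcodes (9 of 787, 0.524% to 2.16%). Among Myb-positive barcodes within the same other limits, they were 47 of 80 in CKO (58.8%, 47.2% to 69.6%) and 9 of 143 in WT (6.29%, 2.92% to 11.6%). Myb-positive barcodes with no Ecscr UMI, called Ecscr-zero cells below, numbered 21 in CKO and 95 in WT, and those with 1 or 2 Ecscr UMIs 12 and 39. When each cell was thinned to 10000 UMIs and the limits applied again, 22 of 802 CKO cells qualified (2.74%) and 0 of 713 WT cells, where 3 counts would be 0.421% and the exact upper bound is 0.516%. The sex of the Ecscr+ Myb+ cells differed between the libraries, and the shares were also taken within each sex. Among barcodes with Xist RNA alone, from the inactive X chromosome, the Ecscr+ Myb+ cells were 4.07% (16 of 393) in CKO and 2.27% (8 of 353) in WT, and among those with Y-linked RNA alone 5.41% (18 of 333) and 0.304% (1 of 329). The intervals overlapped for Xist alone (2.34% to 6.53% in CKO, 0.983% to 4.42% in WT). They did not for Y-linked RNA alone (3.23% to 8.41% and 0.0077% to 1.68%), where WT had 1 cell. The CKO share was the larger in each of these counts, and whether the difference belongs to the genotype was not tested.

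**Figure D1:**
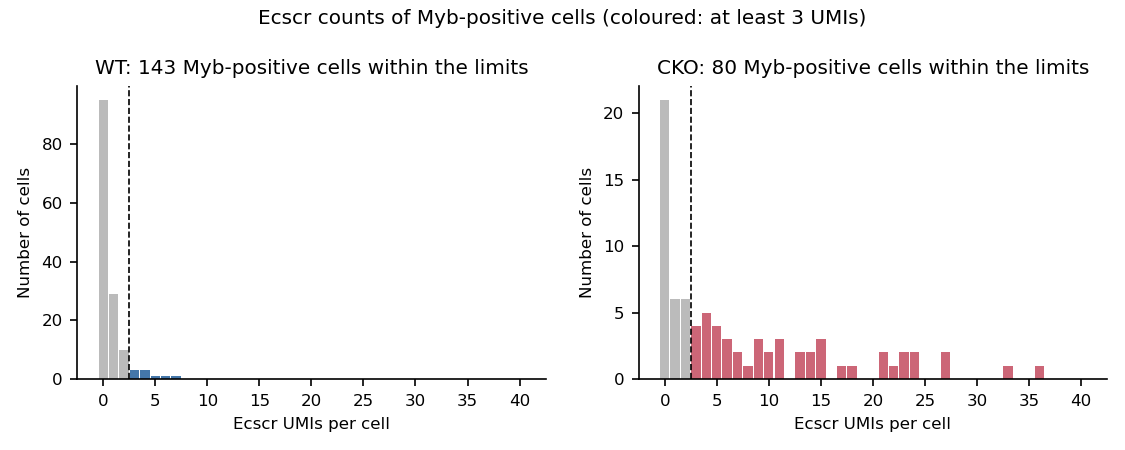
Number of Myb-positive cells within the limits (vertical axis) by Ecscr UMIs per cell (horizontal axis) in WT (left, 143 cells) and CKO (right, 80 cells); the dashed line marks the limit of 3 UMIs. The WT cells end at 7 UMIs and the CKO cells reach 36.

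For Ecscr, 4 CKO and 3 WT cells stood just inside the limit, at exactly 3 UMIs, and 6 and 10 just outside, at exactly 2. In WT the 10 cells just outside outnumbered the 9 that met every limit. The WT share was 2.41% with at least 2 Ecscr UMIs. Myb stood at its minimum of 1 UMI in 20 of the CKO and 5 of the WT cells, and 42 CKO and 6 WT barcodes missed the set by having no Myb UMI alone. The endothelial sum stood just inside its limit, at 8 or 9, in 1 CKO and 2 WT cells and just outside, at 10 or 11, in 2 and 0. Pf4 stood at 2 UMIs in 6 CKO and 1 WT cells and at 3 in 5 and 2 cells outside. Pf4, a platelet chemokine, kept out 17 CKO and 5 WT cells that met every other limit. The Ecscr+ Myb+ cells carried 3 to 36 Ecscr UMIs in CKO (median 10) and 3 to 7 in WT (median 4), so the WT cells lay near the limit and the CKO cells spread far above it. Ecscr was not restricted to vessels in these libraries. It was seen in 59.9% of the collagen-rich CKO cells and 85.8% of the collagen-rich WT cells, which are cells with at least 10 of the 3 collagens' UMIs per 10000.

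The libraries were of like depth (815 WT and 865 CKO barcodes with medians of 27249 and 27882 UMIs), and they shared 1 barcode, which belonged to none of the 56 cells. The CKO Ecscr+ Myb+ cells held 10809 to 96471 UMIs (median 33651) and the WT ones 21922 to 55249 (median 52435). Scrublet called 6 CKO and 3 WT barcodes as doublets, none of them among the 56 cells, and no barcode was removed on that basis. Of the CKO Ecscr+ Myb+ cells, 16 held Xist alone, 18 Y-linked RNA alone, 3 both and 10 neither. Of the WT ones, 8 held Xist alone and 1 Y-linked RNA alone.

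Smarcc1, the targeted gene, stood at 137 CPM (UMIs scaled to a summed total of 1000000) in the WT Ecscr+ Myb+ cells and was seen in 9 of 9. In the CKO ones it stood at 16 CPM (10.7 to 23) with a UMI in 14 of 47. In Ecscr-zero cells it was 55.9 CPM in CKO, in 14 of 21 cells, and 111 CPM in WT, in 90 of 95. In CKO endothelium, taken as cells with at least 10 UMIs of Cldn5, Plvap and Ramp2 and none of Myb within the same Pf4, globin and collagen limits, it was 10.8 CPM in 7 of 35. The CKO Ecscr-zero cells thus held 3.49 times the Smarcc1 RNA of the CKO Ecscr+ Myb+ cells (2.16 to 5.73). A 5′ read need not lie in the deleted part, so a remaining UMI does not show an intact gene. Of 20 BAF genes tested, 19 lay within 2-fold of the CKO Ecscr-zero cells and Smarcc1 was the 1 below. Of all 7603 genes tested there, 3.63% were at least 2-fold higher and 1.7% lower. The BAF count is thus near that of genes in general.

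Promoters of Cd34 and Kit are shown because these were the markers outside the limits with the largest ratios to CKO Ecscr-zero cells that the RefSeq table (GRCm38.p6) holds. Cd34 encodes a sialomucin of endothelium and progenitors, and Kit the receptor for stem cell factor. Each line gives the 250 bases before the gene's RefSeq start, 5′ to 3′ on the + strand, at chr1:194938571-194938820 for Cd34 and chr5:75574737-75574986 for Kit. Capitals mark every match of AGGAA on either strand, the core letters read by ETS factors such as Spi1, Fli1 and Erg.
Cd34 promoter: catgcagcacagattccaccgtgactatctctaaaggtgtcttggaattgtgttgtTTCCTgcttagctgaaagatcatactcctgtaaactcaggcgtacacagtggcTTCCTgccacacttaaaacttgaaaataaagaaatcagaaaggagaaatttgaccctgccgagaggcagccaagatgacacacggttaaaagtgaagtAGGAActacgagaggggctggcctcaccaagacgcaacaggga
Kit promoter: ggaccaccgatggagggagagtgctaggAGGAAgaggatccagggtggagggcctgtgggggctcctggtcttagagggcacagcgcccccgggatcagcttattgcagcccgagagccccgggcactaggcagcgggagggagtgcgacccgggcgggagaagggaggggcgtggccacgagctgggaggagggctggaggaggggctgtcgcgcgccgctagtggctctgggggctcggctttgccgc
AGGAA occurred 3 times in the Cd34 window, at 43 bases before the start on the + strand and at 194 and 141 before it on the − strand, and once in the Kit window, 222 bases before the start. It occurs in 60.2% of 27025 promoters of this length on either strand. The RUNX letters TGTGGT, in 14.2% of promoters, and the GATA letters AGATAA, in 10.3%, were not in either window. Neither were CCGGAA, a longer ETS match present in 12.2%, nor the E-box CANNTG, present in 66%. The Cd34 window also held the SOX letters ACAAT, present in 28.3% of promoters, and the MYB letters AACNG, present in 74.1%. A match is a description of letters and not a binding site.

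In the files' annotation (GRCm38) Cd34 lies at chr1:194938819-194961279 and Kit at chr5:75574916-75656722 on the + strand, and Sox17 at chr1:4490931-4497354, Gja4 at chr4:127311421-127314039 and Myb at chr10:21124935-21160984 on the − strand. Of the 4 markers of the population outside its limits, Cd34 and Kit were found in the Ecscr+ Myb+ cells of both libraries. Sox17 and Gja4 were found almost only in the CKO ones. Cd34 was seen in 47 of 47 CKO cells (1 to 47 UMIs, median 17) and in 9 of 9 WT cells (1 to 29 UMIs), at 444 CPM (413 to 475) and 384 CPM. Kit was seen in 28 of 47 CKO cells (0 to 5 UMIs, median 1) at 39.2 CPM and in 7 of 9 WT cells at 28.4 CPM. Both genes were thus present at like levels in the cells of the 2 libraries. Sox17 was seen in 21 of 47 CKO cells (0 to 34 UMIs, median 0) at 115 CPM (100 to 132). It had 0 UMIs in the 9 WT cells, where 3 counts would be 7.11 CPM. Gja4 was seen in 16 of 47 CKO cells (0 to 18 UMIs) at 48.1 CPM and in 1 WT cell with 1 UMI. The label of endothelial-to-blood intermediates was therefore only partly borne out. In the CKO cells Sox17 and Cd34 stood above CKO Ecscr-zero cells, at 115 beside 1.14 and 444 beside 169 CPM, while the summed levels of Gja4 and Kit (39.2 beside 30.8 CPM) lay close to theirs. In the WT cells Sox17 was at 0 and Gja4 had 1 UMI. Cd34 and Kit, which these cells held, are also expressed by blood progenitors, and Kit was seen in 55.8% of WT Ecscr-zero cells. All 6 markers were seen together in 9 of the 47 CKO cells and in 0 of the 9 WT ones. The limits bar it in the Ecscr-zero and endothelial cells.

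Free RNA in the droplets was gauged in the globin-rich cells, red cells that should lack these genes. Sox17 was seen in 4 of 264 globin-rich CKO cells (1.52%, median depth 34836 UMIs) against 44.7% of the Ecscr+ Myb+ cells (median depth 33651). At 10000 UMIs a cell the shares were 0.403% and 34%. The thinned shares were 3.23% and 23.4% for Gja4, 2.82% and 95.7% for Cd34, and 0.403% and 31.9% for Kit. Each marker was thus seen more often in the Ecscr+ Myb+ cells than in red cells of the same library and depth.

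Levels were compared per gene as summed CPM in 3 ways, against CKO Ecscr-zero cells, CKO endothelium and WT Ecscr-zero cells. All 3 share the same 47 CKO cells, so they are not independent, and they are read side by side. Of the 21 CKO Ecscr-zero cells 4 held Xist alone, 14 Y-linked RNA alone and 14 a Smarcc1 UMI. Among the 47 Ecscr+ Myb+ cells these numbers were 16, 18 and 14. The part of sex and Smarcc1 in the ratios was not tested. A gene was counted when its summed levels differed at least 2-fold with 5 CPM added to each, among genes with at least 20 UMIs. Against CKO Ecscr-zero cells, 276 of 7603 genes (3.63%) were higher by this measure and 129 (1.7%) lower. Against CKO endothelium, 483 of 8080 (5.98%) were higher and 943 (11.7%) lower. Against WT Ecscr-zero cells, 538 of 8912 (6.04%) were higher and 277 (3.11%) lower. These shares are the background for the counts of each gene list, and the median log2 ratio of all genes was 0.05, 0.03 and 0.05.

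Endothelial genes stood between their levels in Ecscr-zero blood cells and in endothelium, and which genes were present was uneven. Of the endothelium list, 11 of 17 genes tested were at least 2-fold higher than in CKO Ecscr-zero cells (background 3.63%) and 0 lower, with a median log2 ratio of 1.38. Against CKO endothelium, 18 of 24 were at least 2-fold lower (background 11.7%) and 0 higher, with a median of −2.43. The endothelial gate itself used 3 endothelial genes, so that difference is not independent of the choice of cells. The difference from Ecscr-zero cells is not independent of it either, because the limits on Ecscr, an endothelial gene, separate these groups. Seen in at least 50% of the CKO Ecscr+ Myb+ cells were 10 of the 24 genes, against 23 of 24 in CKO endothelium and 3 of 24 in CKO Ecscr-zero cells.

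Endothelial genes ranged from levels close to those of endothelium to 0 UMIs. Gng11, a G protein subunit, was seen in 42 of 47 cells (0 to 55 UMIs, median 8) at 378 CPM. It stood at 20.5 CPM in CKO Ecscr-zero cells (ratio 18.4, 11.6 to 31.2) and at 547 CPM in CKO endothelium. Ctla2a, a cysteine protease inhibitor, stood at 654 CPM in 46 of 47 cells, beside 240 and 550 CPM. Both were thus far above the Ecscr-zero cells and close to endothelium. Pecam1, a platelet and endothelial adhesion protein, was seen in 41 of 47 cells at 70.2 CPM, beside 24 in Ecscr-zero cells and 208 in endothelium. Tie1, an angiopoietin co-receptor, was seen in 40 of 47 at 76.2 CPM, beside 17.1 and 126. Esam, an endothelial adhesion molecule, was seen in 37 of 47 at 113 CPM, beside 35.4 and 391. These 3 genes lay between the other groups of the library.

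Cdh5, the cadherin of endothelial junctions, was seen in only 15 of the 47 CKO cells (0 to 10 UMIs) at 21 CPM, against 35 of 35 endothelial cells at 271 CPM. The ratio to endothelium was 0.0774 (0.0536 to 0.109), while 1 of 21 Ecscr-zero cells held a Cdh5 UMI. Kdr, the main VEGF receptor, stood at 67.4 CPM in 35 of 47 cells, beside 41.1 in Ecscr-zero cells and 372 in endothelium. Icam2, an adhesion molecule, stood at 22.1 CPM in 15 of 47 cells, beside 12.6 and 463. Clec14a, a C-type lectin of vessels, had 0 UMIs in all 47 cells and 532 CPM in endothelium, so it was at least 321-fold lower when 3 counts over the group are taken as its level. Emcn, a sialomucin of veins and capillaries, and Sox7, a vascular SOX factor, also had 0 UMIs, against 88.1 and 43.1 CPM. The ETS factor genes Erg and Fli1 were the closest to endothelium among the transcription factors of the list, at 27.1 beside 39.2 CPM and 57.4 beside 82.3 CPM.

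**Figure D2:**
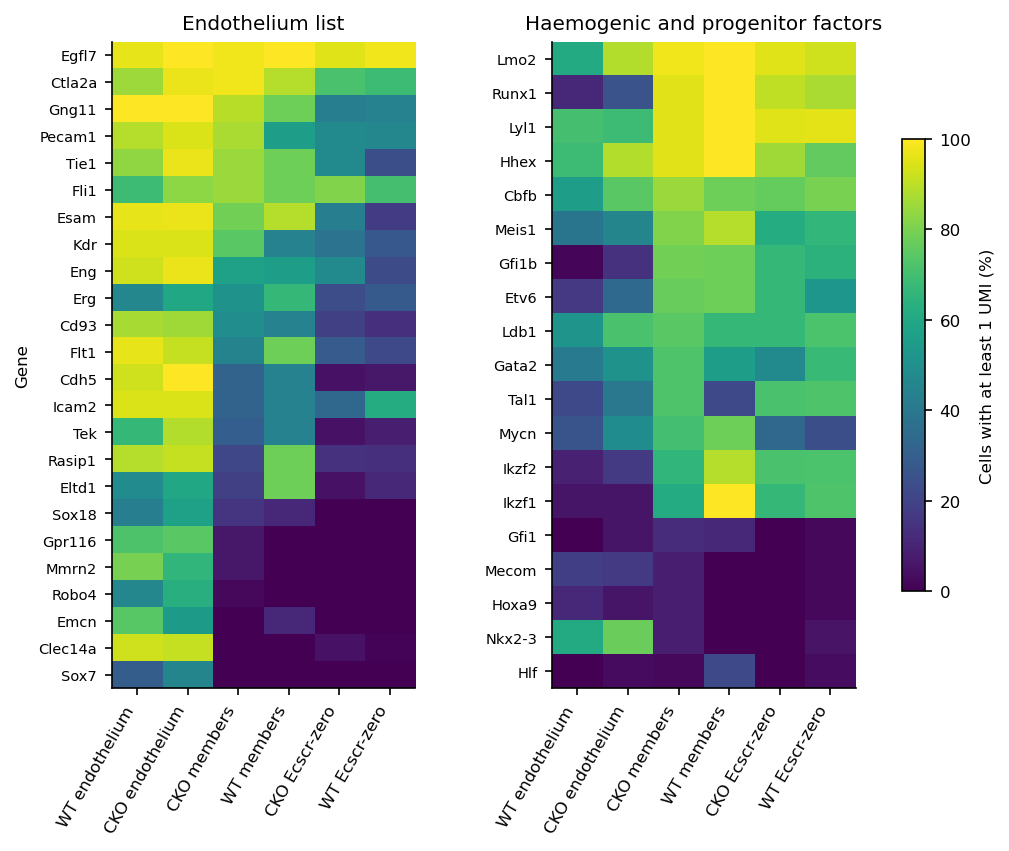
Share of cells with at least 1 UMI (colour, 0 to 100%) for each gene (rows) of the endothelium list and the haemogenic factor list in 6 groups of cells (columns). In the CKO Ecscr+ Myb+ cells ("CKO members") 10 of 24 endothelial and 14 of 19 haemogenic genes reach 50%, and Emcn, Clec14a and Sox7 are at 0.

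Venous and plexus genes were low throughout. All 8 tested were at least 2-fold lower than in CKO endothelium (background 11.7%), with a median log2 ratio of −4.06. Lyve1, a hyaluronan receptor of yolk sac vessels, stood at 40.9 CPM beside 1112 CPM in endothelium, and 1 cell held 45.9% of its UMIs. Stab2, a scavenger receptor, had 0 UMIs beside 526 CPM. The receptor gene Gpr182 had 1 UMI, at 0.552 beside 534 CPM. Oit3 stood at 1.66 beside 200 CPM, and Fabp4, a fatty acid binding protein, at 1.10 beside 332 CPM. Other genes among the most reduced against endothelium were Crip2 (14.4 beside 750 CPM), Gap43 (4.42 beside 304 CPM), the imprinted RNA gene Meg3 (6.08 beside 413 CPM) and Fabp5 (63.5 beside 2526 CPM). S100a16 and Igfbp3 had no UMI in the Ecscr+ Myb+ cells, beside 186 and 147 CPM.

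Arterial genes were reduced to a few. Sox17 had a ratio of 101 (18 to 4015) to CKO Ecscr-zero cells, which held 1 Sox17 UMI in 21 cells, and of 0.689 (0.560 to 0.849) to CKO endothelium, where it stood at 167 CPM. Gja4 stood at 48.1 beside 45.6 CPM in Ecscr-zero cells (ratio 1.05, 0.716 to 1.57). In the latter 1 cell held 29 of the 40 Gja4 UMIs (72.5%), and the gene was seen in 16 of 47 against 4 of 21 cells. Vegfc, a lymphangiogenic growth factor, was seen in 30 of 47 cells at 37 CPM, beside 12.6 in Ecscr-zero cells and 18.6 in endothelium. The Notch ligand gene Dll4 had 2 UMIs in the 47 cells, at 1.10 CPM beside 39.2 CPM in endothelium. Efnb2, the arterial ephrin, stood at 2.21 beside 48 CPM and Nrp1, a semaphorin and VEGF co-receptor, at 12.7 beside 222 CPM. Of the 15 arterial genes, 5 were tested against Ecscr-zero cells, and Sox17 and Vegfc were the 2 higher (background 3.63%). Against endothelium, 5 of 8 were at least 2-fold lower (background 11.7%) and 0 higher.

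Most Notch pathway genes were likewise low. Hes1, a Notch target, stood at 8.84 CPM beside 214 CPM in CKO endothelium (ratio 0.0412, 0.0231 to 0.0684), and the target gene Nrarp at 39.2 beside 99.9 CPM. Against CKO endothelium 4 of 6 genes tested were lower (background 11.7%) and 0 higher. Notch1 stood at 11 CPM in the Ecscr+ Myb+ cells, 17.1 in CKO Ecscr-zero cells and 39.2 in CKO endothelium. Nrarp was the 1 of 6 that was higher than in Ecscr-zero cells (background 3.63%), at 39.2 beside 10.3 CPM.

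**Figure D3:**
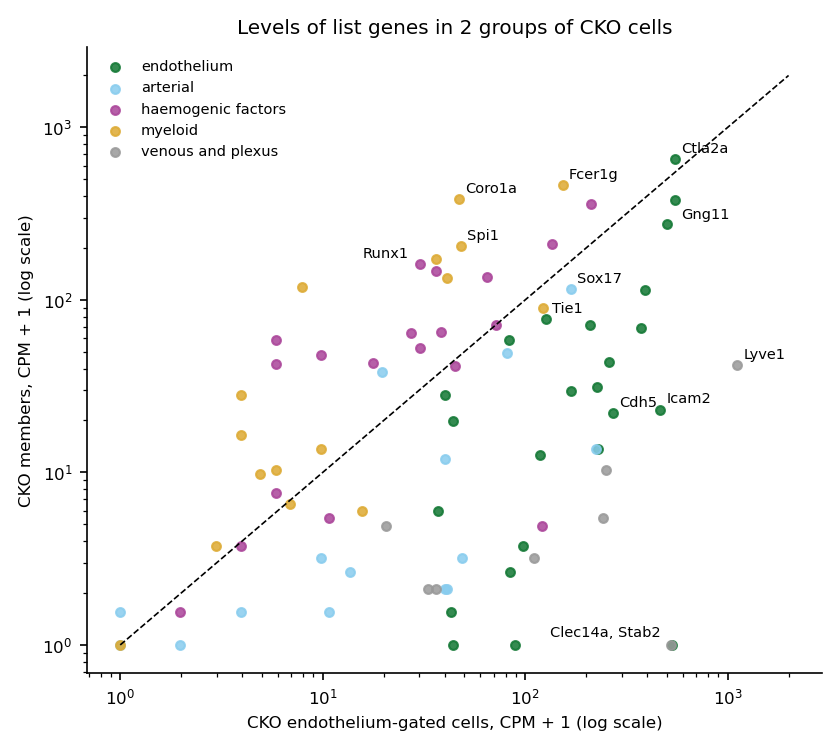
Level of each list gene in the 47 CKO Ecscr+ Myb+ cells (vertical axis) against the 35 CKO endothelial cells (horizontal axis), as CPM + 1 on log scales; points are genes coloured by list and the dashed line marks equal levels. Venous genes and Clec14a lie low, with Stab2 and Clec14a at 0 CPM in the Ecscr+ Myb+ cells, and Runx1, Spi1 and Coro1a lie above the line.

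Many blood transcription factors stood above CKO endothelium, with few differences from CKO Ecscr-zero cells. Of 15 haemogenic and progenitor factors tested against CKO endothelium, 8 were at least 2-fold higher (background 5.98%) and 1 lower, with a median log2 ratio of 1.02. The Ecscr+ Myb+ cells were chosen with Myb, a blood gene, and the endothelial cells without it. Differences from endothelium in this list and in the receptor, myeloid, granule and megakaryocyte lists are therefore not independent of the choice of cells. Against CKO Ecscr-zero cells, 13 of 14 lay within 2-fold, 1 was higher (background 3.63%) and 0 lower (background 1.7%). Most of all genes tested lay within 2-fold there, so this count does not set the list apart. Runx1, the factor of the endothelial-to-blood switch, was seen in 45 of 47 cells (0 to 19 UMIs, median 5) at 161 CPM, beside 115 in CKO Ecscr-zero cells and 29.4 in CKO endothelium, a ratio of 5.49 (3.76 to 8.28) to the latter. Gfi1b, a repressor that acts below Runx1, was seen in 37 of 47 at 57.4 CPM, beside 51.4 and 4.90. Ikzf1, a lymphomyeloid factor, stood at 41.4 CPM beside 51.4 and 4.90. These genes were at the level of blood cells and above endothelium.

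Factors shared by endothelium and blood differed less. Lmo2 stood at 359 CPM in 46 of 47 cells, beside 268 in CKO Ecscr-zero cells and 210 in CKO endothelium. Hhex stood at 211 CPM beside 163 and 135, and Gata2, a progenitor factor, at 64.1 beside 38.8 and 37.2. Mycn, a MYC family factor, was the 1 list gene at least 2-fold above Ecscr-zero cells. It was seen in 33 of 47 cells (0 to 24 UMIs, median 3) at 147 CPM, beside 37.7 in CKO Ecscr-zero cells (ratio 3.90, 2.71 to 5.79) and 35.3 in CKO endothelium. In the WT Ecscr+ Myb+ cells it was 68.7 CPM, in 7 of 9, and in WT Ecscr-zero cells 14.9 CPM. Nkx2-3, a homeobox factor, was the 1 gene lower than in endothelium, at 3.87 beside 120 CPM. Hlf, a factor of definitive stem cells, had 1 UMI in the 47 cells, and Mecom stood at 4.42 CPM in 4 cells.

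**Figure D4:**
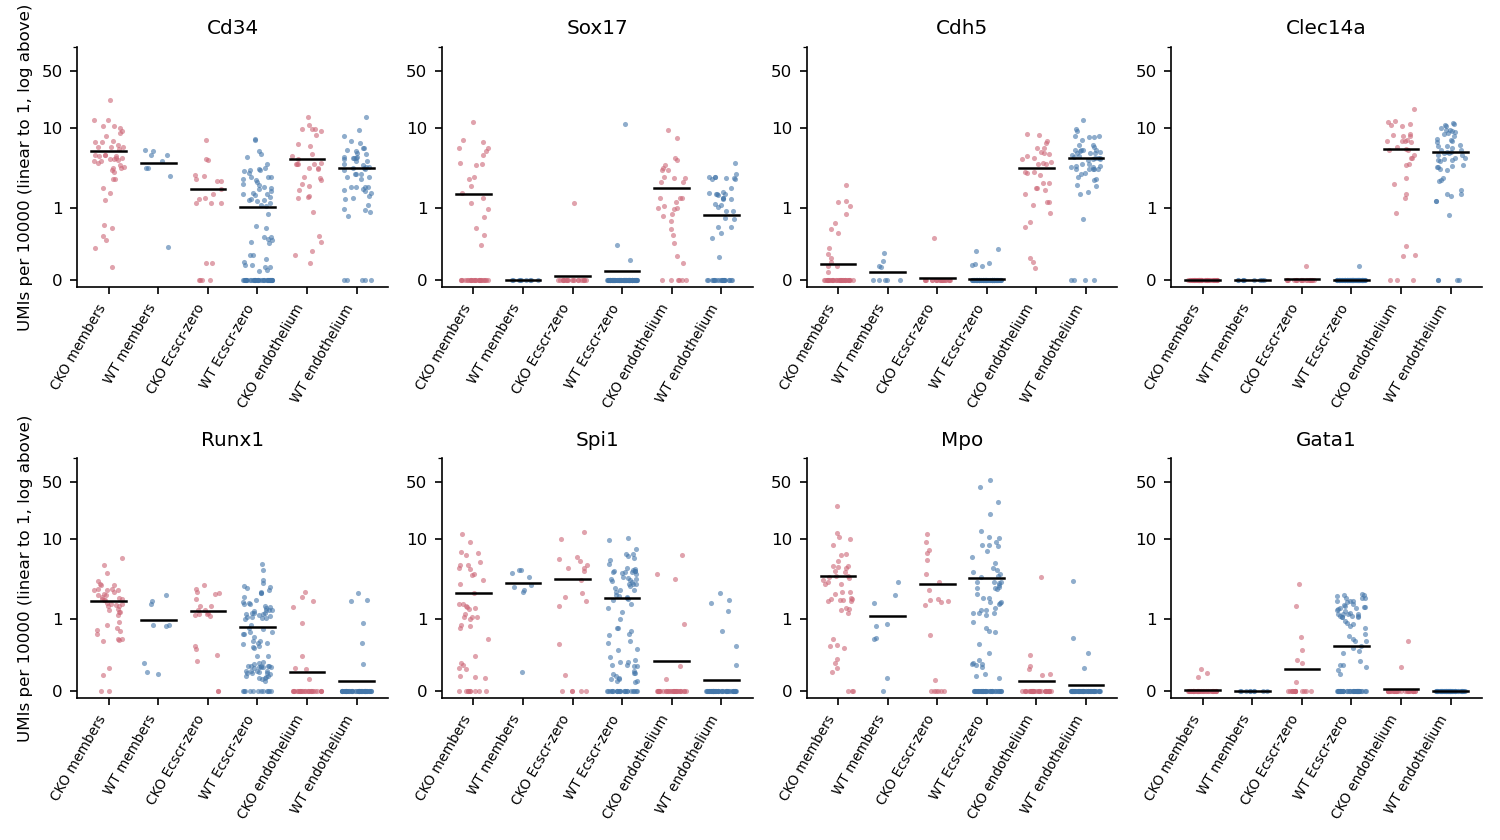
UMIs per 10000 (vertical axis, linear to 1 and logarithmic above) of 8 genes in single cells (points) of 6 groups (horizontal axis; CKO red, WT blue), with the mean over cells as a bar. Cd34, Sox17 and Runx1 are high in the CKO Ecscr+ Myb+ cells ("CKO members"), Clec14a is at 0 and Gata1 is seen in 3 of 47 cells.

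Receptors of blood progenitors followed the same order. Against CKO endothelium 7 of 13 tested were higher (background 5.98%) and 1, Procr, lower (background 11.7%). Gpr56 (Adgrg1), an adhesion receptor of stem and progenitor cells, stood at 255 CPM in 46 of 47 cells beside 28.4 CPM in endothelium (ratio 8.96, 6.16 to 13.5). Itgb3, a megakaryocyte and progenitor integrin chain, stood at 162 CPM beside 26.4, but 211 in CKO Ecscr-zero cells. Neurl3, a ubiquitin ligase described in haemogenic endothelium, was seen in 34 of 47 cells at 54.7 CPM, beside 12.6 in CKO Ecscr-zero cells (ratio 4.36, 2.33 to 9.01) and 20.6 in endothelium. It was 40.3 CPM in the WT Ecscr+ Myb+ cells. Procr, the protein C receptor of endothelium and stem cells, stood at 22.6 CPM beside 3.42 and 81.3, and 1 cell held 43.9% of its UMIs. Csf1r, the receptor of macrophage precursors, was seen in 7 of 47 cells at 15.5 CPM beside 44.5 in CKO Ecscr-zero cells. Ptprc (CD45), a pan-leukocyte phosphatase, was seen in 16 of 47 cells at 22.1 CPM, beside 35.4 in Ecscr-zero cells and 0 UMIs in endothelium.

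Myeloid and granule genes were well above endothelium. Against CKO endothelium 8 of 13 myeloid genes were higher (background 5.98%) and 0 lower, with a median log2 ratio of 1.58, and 3 of 3 granule genes were higher. Spi1, the master factor of myeloid cells, was seen in 38 of 47 cells (0 to 41 UMIs, median 4) at 205 CPM, beside 47 CPM in endothelium. Mpo, the granule enzyme myeloperoxidase, was seen in 44 of 47 cells (0 to 51 UMIs, median 7) at 290 CPM, beside 15.7 in endothelium (ratio 18.5, 11.3 to 32.6) and 274 in CKO Ecscr-zero cells. Fcer1g, an Fc receptor signalling chain, stood at 463 beside 152 and 597 CPM. Elane, Ctsg, Ms4a3 and Prg2, genes of later granulocytes, held 3 UMIs in all 47 cells.

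Against CKO Ecscr-zero cells, a group of myeloid and macrophage genes was lower, and several turned when fewer cells were compared. Of 14 myeloid genes 4 were lower (background 1.7%) and 2 higher, and of 10 macrophage genes 6 were lower and 1 higher. Tyrobp, an immune signalling adaptor, stood at 118 CPM in 20 of 47 cells beside 379 in 12 of 21, and Prtn3, a neutrophil protease, at 147 CPM in 23 of 47 beside 512 in 12 of 21. Rac2, a leukocyte GTPase, stood at 128 beside 440 CPM, Lpl, a lipase, at 8.29 beside 225 CPM, and C1qb, a complement chain of macrophages, at 6.63 CPM in 4 cells beside 138 CPM in 4 cells. Among Xist-positive cells only, 16 against 4, the log2 ratio of Tyrobp was 4.62, of Prtn3 4.77, of Rac2 3.19, of Lpl 1.62, of Plac8 2.04, of Lsp1 2.21 and of Hmox1 0.77, all above 0. C1qb and Cd52 were at 0.00 and 0.02 there. Against the 10 comparison cells with Kit, the macrophage median was 0.12 and Lpl 0.78, while Tyrobp, Prtn3, Rac2, C1qb, Plac8, Lsp1, Hmox1 and Cd52 stayed below 0. Irf8, a monocyte factor, stood at 5.52 beside 44.5 CPM.

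The erythroid list was divided, with its transcription factors Gata1 and Klf1 nearly missing and Car2, Nfe2 and Tfrc present. Its sum was 638 CPM, beside 604 in CKO Ecscr-zero cells, 816 in WT Ecscr-zero cells and 261 in CKO endothelium. Gata1, the erythroid master factor, and Klf1, its partner in red cells, each had 3 UMIs in the 47 CKO cells, at 1.66 CPM, and 0 UMIs in the 9 WT cells. In WT Ecscr-zero cells they stood at 68.2 CPM, in 52 of 95 cells, and 94.2 CPM, in 46 of 95. In CKO Ecscr-zero cells they stood at 22.8 CPM in 7 of 21 cells and 12.6 CPM in 2. The Ecscr+ Myb+ cells of both libraries were thus at or near 0 for both genes. Car1, a carbonic anhydrase of red cell precursors, stood at 1.10 beside 52.3 CPM in WT Ecscr-zero cells, and 8 of 12 erythroid genes were at least 2-fold lower than there (background 3.11%) and 0 higher. Against CKO Ecscr-zero cells it was 4 of 8 (background 1.7%), with a median log2 ratio of −1.13. That median was 0.13 among Y-positive cells, 0.10 over genes with at least 100 UMIs and 1.01 among cells with a Smarcc1 UMI. Of 16 erythroid genes 5 were tested against CKO endothelium, and Nfe2, Tfrc and Car2 were at least 2-fold higher (background 5.98%) and Epor lower, with a median log2 ratio of 1.33. Tfrc, the transferrin receptor, stood at 14.9 beside 2.94 CPM. Car2, another carbonic anhydrase, stood at 527 CPM with 22.1% of its UMIs in 1 cell, and Nfe2, a factor of red cells and megakaryocytes, at 58 CPM in 33 of 47.

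Embryonic globin RNA was found in every CKO Ecscr+ Myb+ cell, with 7 to 130 Hbb-y UMIs. Hbb-y stood at 1131 CPM in the CKO Ecscr+ Myb+ cells, 1191 in CKO Ecscr-zero cells and 1263 in CKO endothelium, but 175 CPM in the WT Ecscr+ Myb+ cells. The 7 globins together stood at 2416 CPM in the CKO and 358 CPM in the WT Ecscr+ Myb+ cells. Genes shared with red cells are to be read beside these values, and their part in the results was not tested. Hbb-bt was the globin that differed within the library, at 90 CPM beside 6.86 in endothelium, with 39.9% of its UMIs in 1 cell.

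Megakaryocyte genes were at least 2-fold above endothelium in 6 of 7 cases (background 5.98%). They lay within 2-fold of CKO Ecscr-zero cells in 6 of 7, as most of all genes tested did, and 1 was higher (background 3.63%). Plek, a platelet kinase substrate, stood at 221 CPM in 46 of 47 cells, beside 22.5 in endothelium and 211 in Ecscr-zero cells. Clec1b, the podoplanin receptor of platelets, was the 1 gene above both groups. It was seen in 38 of 47 cells (0 to 93 UMIs, median 9) at 368 CPM, beside 120 in Ecscr-zero cells (ratio 3.07, 2.5 to 3.81) and 179 in endothelium. The late platelet genes Gp5, Gp6, Vwf and Tubb1 had 0 UMIs in the 47 cells. Gp5, Gp6 and Tubb1 were also at 0 in CKO Ecscr-zero cells and CKO endothelium. These groups were all limited in Pf4, a platelet gene, so low platelet genes are not independent of the choice of cells.

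Genes without a place in these lists also led the comparison with CKO endothelium. The DNA methyltransferase gene Dnmt3b stood at 252 CPM in 42 of 47 cells beside 22.5 CPM (ratio 11.2, 7.36 to 17.8), and at 209 CPM in 9 of 9 WT Ecscr+ Myb+ cells. Dapp1, a signalling adaptor, stood at 75.1 beside 1.96 CPM, Cited2, a co-activator partner needed in blood stem cells, at 388 beside 42.1 CPM, and Pycard, an inflammasome adaptor, at 168 beside 17.6 CPM. Pmaip1 (Noxa), a p53 target that promotes apoptosis, stood at 135 CPM in 28 of 47 cells, beside 55.9 in CKO Ecscr-zero cells, 11.8 in CKO endothelium and 19 in the WT Ecscr+ Myb+ cells. The p53 targets were divided. Against endothelium 3 of 16 were higher (background 5.98%) and 5 lower (background 11.7%). Of 12 tested against CKO Ecscr-zero cells, Pmaip1 and Plk2 were higher (background 3.63%) and Cdkn1a and Sesn2 lower (background 1.7%). Cdkn1a, the cell cycle inhibitor p21, stood at 49.7 CPM beside 135 in Ecscr-zero cells and 99.9 in endothelium.

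Several growth factor and imprinted genes stood above blood cells. Igf1, an insulin-like growth factor, was seen in 41 of 47 CKO cells (0 to 34 UMIs, median 5) at 179 CPM. It stood at 26.2 CPM in CKO Ecscr-zero cells (ratio 6.82, 4.47 to 10.9), 203 CPM in CKO endothelium and 4.04 CPM in WT Ecscr-zero cells. In the WT Ecscr+ Myb+ cells it was 21.3 CPM, in 5 of 9. Mest, an imprinted gene of mesoderm and endothelium, was seen in 35 of 47 cells (0 to 92 UMIs, median 2) at 320 CPM, beside 53.6 in CKO Ecscr-zero cells, 2510 in CKO endothelium and 14.2 in the WT Ecscr+ Myb+ cells. Among Xist-positive cells its log2 ratio to CKO Ecscr-zero cells was −0.84, against the 4 comparison cells left. Of the imprinted and growth list, 5 of 8 genes were higher than in CKO Ecscr-zero cells (background 3.63%) and 0 lower. Against endothelium 9 of 11 were lower (background 11.7%) and 1, Dlk1, higher. Against WT Ecscr-zero cells 6 of 11 tested were higher (background 6.04%) and Grb10 (6.08 beside 29.8 CPM) and Meg3 (6.08 beside 19.2 CPM) lower.

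Matrix genes were reduced from endothelium and above blood. Sparc, a collagen-binding matrix protein, stood at 102 CPM beside 1419 CPM in CKO endothelium and 34.2 in CKO Ecscr-zero cells. Col4a1, a basement membrane collagen, stood at 9.39 beside 258 CPM in endothelium. Against endothelium 8 of 11 matrix genes were at least 2-fold lower (background 11.7%) and 0 higher. Hapln1, a hyaluronan link protein, was seen in 41 of 47 cells at 170 CPM, beside 45.6 in Ecscr-zero cells and 175 in endothelium. Col26a1 was seen in 21 of 47 cells at 20.4 CPM, beside 1.14 and 35.3. Col18a1, another basement membrane collagen, stood at 93.3 beside 24 and 223 CPM.

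Other genes that led the comparison with CKO Ecscr-zero cells are listed with both levels. Lmo1, a LIM-domain transcription co-factor, stood at 96.7 beside 10.3 CPM, and 9.48 CPM in the WT Ecscr+ Myb+ cells. Trim47 stood at 65.2 beside 6.85 CPM, the SOX factor gene Sox4 at 82.3 beside 10.3 CPM, Gimap6, a small GTPase, at 112 beside 18.3 CPM, Lgals9, a galectin, at 105 beside 17.1 CPM, and Cnrip1 at 70.2 beside 10.3 CPM. Jun and Hspa1a, an early response factor and a heat shock protein, stood at 340 beside 75.3 and 414 beside 51.4 CPM. Their levels in WT Ecscr-zero cells were 619 and 1762 CPM, above the Ecscr+ Myb+ cells, so that their direction depended on the comparison cells. Among the lower genes were Mt1, a metallothionein (58 beside 207 CPM), Mthfd2, a mitochondrial folate enzyme (49.2 beside 169 CPM), and Cmtm7 (105 beside 325 CPM).

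The comparison with WT Ecscr-zero cells crosses the 2 libraries, so genotype, library and the Ecscr limit cannot be told apart in it. The endothelium list was higher in 13 of 17 genes and lower in 0 (background 6.04%), with a median log2 ratio of 1.58, and Id3, a target of BMP signals, was higher, at 219 beside 14.4 CPM (ratio 15.2, 11.5 to 20.4). It stood at 209 CPM in CKO Ecscr-zero cells. Of the Id3 UMIs 32.8% came from 1 cell, and among CKO cells with a Smarcc1 UMI its log2 ratio was −0.29. Myct1 stood at 53 beside 1.77 CPM and Gsn, the actin-severing gelsolin, at 170 beside 13.9 CPM. Lower genes included, beside Gata1, Klf1 and Car1, the red cell genes Cited4 (21.5 beside 244 CPM), Smim1 (18.2 beside 144 CPM) and Kcnn4 (2.21 beside 45.2 CPM). Ptprcap, a CD45-associated protein, stood at 6.63 beside 152 CPM, Chchd10 at 7.73 beside 108 CPM and Tspan15 at 0.552 beside 47.7 CPM.

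Cell cycle genes, like most genes tested, differed little within the CKO library. All 24 S phase genes and all 24 G2/M genes tested lay within 2-fold of CKO Ecscr-zero cells, with medians of −0.19 and −0.10. The background there was 3.63% higher and 1.7% lower, so few genes of any list would be counted. Against CKO endothelium 1 of 24 S phase genes, Rrm2, was lower (background 11.7%) and 0 higher (background 5.98%), with a list median of 0.14. All 24 G2/M genes lay within 2-fold there. Against WT Ecscr-zero cells Rrm2 (64.1 beside 281 CPM) and Cdc6 (17.1 beside 42.7 CPM) of the 24 S phase genes were at least 2-fold lower (background 3.11%), with a list median of −0.38, and Tubb4b (289 beside 637 CPM) of the G2/M genes. The median CKO cell showed 18 of the 24 genes of each list.

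The 47 CKO cells were not uniform. The endothelium list, without the genes of the limits, summed to 4.71 to 67.5 UMIs per 10000 and the myeloid list to 2.77 to 85.3. Across the 47 cells, which share 1 library and differ in depth, Spearman's rho between these sums was −0.58, so cells with more endothelial RNA held less myeloid RNA. The endothelium sum had a rho of 0.51 with Ecscr, 0.51 with the imprinted and growth list and −0.47 with the UMIs per cell. The depth of the cells therefore moved with these sums, and its part in them was not tested.

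**Figure D5:**
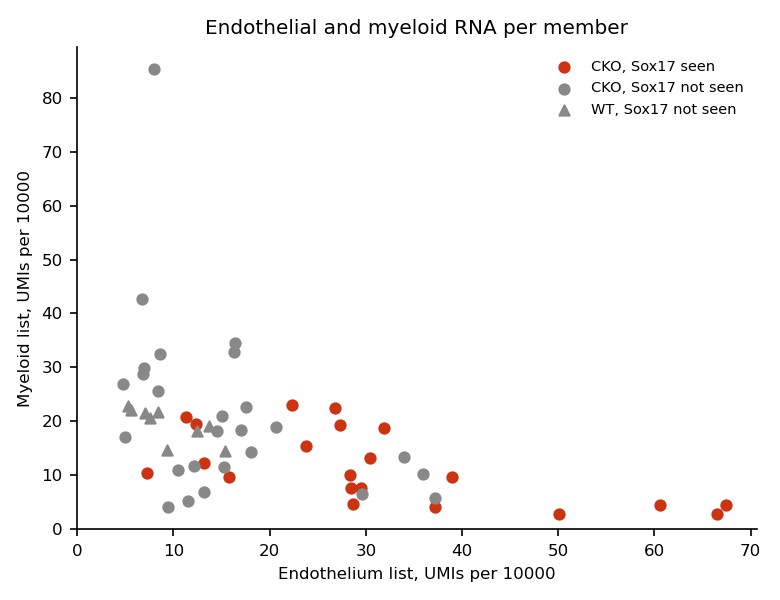
Sum of the endothelium list (horizontal axis) and of the myeloid list (vertical axis) in UMIs per 10000 for each Ecscr+ Myb+ cell; circles are 47 CKO cells, red where a Sox17 UMI was seen, and triangles are 9 WT cells. The 4 cells between 50.1 and 67.5 on the horizontal axis hold 2.77 to 4.52 on the vertical axis, and the WT cells lie between 5.30 and 15.4 on the horizontal axis.

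Sox17-positive cells lay toward the endothelial end but kept blood genes. The 21 CKO cells with a Sox17 UMI had a median endothelium sum of 28.4 per 10000 (7.26 to 67.5) and the 26 without one 13.8 (4.71 to 37.2), and the myeloid medians were 10 and 18.2. The ranges overlapped. Of the 21 Sox17-positive cells, 18 also held both Runx1 and Mpo UMIs and 16 a Spi1 UMI, while 1 of 35 CKO endothelial cells held Sox17, Runx1 and Mpo together. Sox17 and Gja4 were seen together in 12 cells, Sox17 alone in 9, Gja4 alone in 4 and neither in 22. Cdh5 was seen with Runx1 and Mpo in 13 of 47 cells, and Pecam1, Tie1, Runx1 and Mpo together in 33 of 47. Those 4 genes were seen together in 4 of 21 CKO Ecscr-zero and 3 of 35 endothelial cells. Csf1r was seen in 1 of the 21 Sox17-positive and 6 of the 26 other cells.

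The 14 CKO cells with a Smarcc1 UMI and the 33 without one differed by gene. Runx1 stood at 179 and 153 CPM, Mpo at 281 and 294, Kit at 36.2 and 40.5 and Cd34 at 381 and 471. Spi1 summed higher with a Smarcc1 UMI, at 265 CPM (223 to 311) and 179 CPM (156 to 204), but was seen in 11 of 14 and 27 of 33 cells. Single cells held 41 and 34 of the 146 Spi1 UMIs with Smarcc1, and up to 40 of the 225 without. Gja4 summed lower with a Smarcc1 UMI, at 27.2 CPM (15.2 to 44.8) in 3 of 14 cells and 57.2 CPM (44.8 to 72) in 13 of 33. Single cells held 18, 16 and 12 of the 72 Gja4 UMIs without Smarcc1, and up to 7 of the 15 with it. Sox17 was seen in 4 of 14 and 17 of 33 cells, at 85.2 CPM (62.6 to 113) and 129 CPM (110 to 150). Cdh5 stood at 50.7 CPM (33.7 to 73.3) in 7 of 14 cells and 7.94 CPM (3.81 to 14.6) in 8 of 33. Single cells held 10, 5, 5 and 4 of the 28 Cdh5 UMIs with Smarcc1, and up to 3 of the 10 without. Mest stood at 558 and 215 CPM. Single cells held up to 92 of the 308 Mest UMIs with Smarcc1 and up to 78 of the 271 without. Median depths were 36800 and 32341 UMIs, and a missing UMI does not show that the gene was lost in a cell.

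The 9 WT cells held blood genes and a lower endothelial sum than the CKO ones. The 27 genes of the endothelium list, 3 of them used by the rule, summed to 981 CPM (889 to 1080), beside 435 in WT Ecscr-zero cells, 1958 in the CKO Ecscr+ Myb+ cells and 9000 in WT endothelium. Of the 24 genes outside the rule 12 were seen in at least 50% of the WT cells, against 10 in the CKO ones and 4 in WT Ecscr-zero cells, and the WT cells were the deeper. Each held Smarcc1 (3 to 11 UMIs), Runx1 (1 to 11), Spi1 (1 to 22) and Fcgr3 (4 to 9), an Fc receptor of progenitors. None held a UMI of Sox17, Gata1 or Klf1. Mpo was seen in 8 of 9 and Prtn3 in 7 of 9. Cdh5, at 1 or 2 UMIs, was seen in 4 cells, and Pecam1, Tie1, Runx1 and Mpo together in 3. The cell with the most Ecscr (7 UMIs) held 17 Cd34 UMIs, 1 UMI each of Cdh5, Pecam1, Kdr, Runx1 and Spi1, and no Mpo. The third cell was the shallowest, at 21922 UMIs, and held the only Gja4 UMI and 8 Cdkn1a UMIs, the gene being at 0 in the other WT cells. The endothelium sum ran from 5.30 to 15.4 per 10000 in the WT cells, inside the range of the CKO ones. As 9 cells are too few for a group, no ratio was formed.

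Markers of other cell types were low in the 47 CKO cells. Of the visceral endoderm list 5 of 9 genes were at 0, Apoa1 and Amn among them, with 0 to 0.618 UMIs per 10000 over cells. Of the mesenchyme list 4 of 12 were at 0, Pdgfra and Pdgfrb included. Its 3 collagens are capped by the limits, and of the 9 genes outside them 0 to 3 were seen per cell (median 1). Of the smooth muscle list 4 of 6 were at 0, and 11 CPM was found beside 41.1. The mast cell and trophoblast lists had 0 UMIs in all 47 cells, and of the lymphocyte list 4 of 6, Rag1 and Cd3e among them, were at 0. Of the macrophage list C1qa, Timd4 and Trem2 were at 0, and its sum was 462 CPM beside 737 in CKO Ecscr-zero cells and 1720 in CKO endothelium. Their part in the other results was not tested.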

How the data were processed

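The authors deposited raw UMI counts per gene and barcode, 1 matrix per genotype, made with Cell Ranger and Seurat on GRCm38 per the submitters' processing notes. The sources used here give neither versions nor filters. Barcodes needed 500 genes or more, with no more than 10% of UMIs from mitochondrial genes, and the limits on Ecscr, Myb and 4 further measures were applied to the counts. The cells and the gene lists were chosen with earlier results of these data known. Counts were summed over the cells of a group and divided by the group's total. Levels carry exact Poisson intervals, ratios conditional binomial intervals and shares Clopper-Pearson intervals at 95%. UMIs of 1 cell are not independent, and the intervals cover counting error only. A level of 0 was set at 3 counts over the group for a bound. The 3 comparisons used groups of 20 or more cells, and alternatives on subsets went below that. Named genes were the 12 highest and 12 lowest ratios per comparison among genes with 100 UMIs or more that 10% or more of the higher group's cells showed, leaving out ribosomal, mitochondrial, predicted and sex-linked genes. From each list they were the 4 most abundant genes, those with the largest and smallest ratio and those seen in at least 25% of the cells. Genes listed as being at 0, and the later granulocyte genes, were chosen after their values were seen. Cells were thinned with seed 0, and Scrublet (scanpy 1.11.5) was run with an expected rate of 1%. The scripts ran in Python 3.11.15 with pandas 2.3.3, scipy 1.17.1, numpy 2.4.6 and matplotlib 3.10.9, and the ratio code was checked on simulated data. Of 371 list genes, all were matched, 4 of them through older symbols. Promoters came from a RefSeq table. Other limits, pseudocounts, count minimums and subsets of cells were tried as alternatives.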

Additional observations from a re-analysis of the deposited data

How the results depend on the processing

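No paired analysis was possible because there was 1 library per genotype. The alternatives changed 29 of the counts and shares by more than 1.5 times or beyond their interval and left 75 within it. Of the gene values, 14 turned direction, 216 others moved beyond their interval and 808 stayed within it. Of the list medians, 6 turned direction, 114 others moved beyond the margin set for them and 632 stayed within it. A gene value or list median was counted as turned only where its main ratio was at least 2-fold. Smaller ones that changed sign are counted as moved or as within. Only the turned values of genes and lists are given below. The causes were not tested, but higher minimums test fewer genes and subsets hold fewer cells. The WT share of Ecscr+ Myb+ cells was 2.41% with at least 2 Ecscr UMIs, 0.381% with at least 5, 0.508% with at least 2 Myb UMIs, 2.27% among Xist-positive and 0.304% among Y-positive cells, and 0% after thinning. The CKO share was 3.19% with at least 2 Myb UMIs, 7.56% without the Pf4 limit, 4.07% among Xist-positive cells and 2.74% after thinning. Against CKO Ecscr-zero cells, the genes at least 2-fold higher numbered 465 with 1 CPM added, 92 with at least 100 UMIs, 625 among cells with no Smarcc1 UMI, 800 among Xist-positive cells and 456 against comparison cells with Kit. Those lower numbered 215 with 1 CPM added, 34 with at least 100 UMIs, 242 with no minimum, 207 with no Smarcc1 UMI and 202 among Xist-positive cells. Against CKO endothelium, at least 100 UMIs left 222 higher and 329 lower genes, Y-positive cells 621 lower ones, and cells with a Smarcc1 UMI, an alternative chosen after seeing the data, 396. Against WT Ecscr-zero cells, 1 CPM gave 944 higher and 519 lower genes, at least 100 UMIs 255 and 166, and cells with a Smarcc1 UMI 496 lower. Turned directions against CKO Ecscr-zero cells among Xist-positive cells, 16 against 4, were log2 ratios of −0.84 for Mest, 1.62 for Lpl, 0.00 for C1qb, 0.77 for Hmox1, 2.04 for Plac8, 0.02 for Cd52, 4.77 for Prtn3, 3.19 for Rac2, 4.62 for Tyrobp and 2.21 for Lsp1, and a macrophage list median of 0.18. Against the 10 comparison cells with Kit, Lpl stood at 0.78 and the macrophage median at 0.12, and with no Smarcc1 UMI Prtn3 stood at 1.04. The erythroid median was 0.10 with at least 100 UMIs, 0.13 among Y-positive cells and 1.01 with a Smarcc1 UMI, where Cd52 stood at 0.01. Against CKO endothelium the erythroid median was −0.02 with no minimum, and against WT Ecscr-zero cells Id3 stood at −0.29 with a Smarcc1 UMI. With 47 cells and 1810396 UMIs, 3 counts are 1.66 CPM, and the exact upper bound for a gene with no UMI, such as Clec14a, is 2.04 CPM.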

Other observations

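Interferon-related genes, proteins of antiviral defence and antigen presentation, were present unevenly in the CKO Ecscr+ Myb+ cells. Ifitm1, a membrane protein that restricts virus entry, was seen in 27 of 47 cells (0 to 145 UMIs, median 1) at 280 CPM, beside 94.7 in CKO Ecscr-zero cells, 31.3 in CKO endothelium and 329 in the WT Ecscr+ Myb+ cells, and 1 cell held 28.6% of its UMIs. Ifitm3, a related protein, stood at 37.6 CPM beside 104 in CKO Ecscr-zero cells and 104 in CKO endothelium. H2-K1, a class I histocompatibility chain, stood at 67.9 CPM beside 41.1 and 10.8, and 7.11 in the WT Ecscr+ Myb+ cells. Ifit1 was seen in 1 cell with 15 UMIs. Cd47, the surface signal that inhibits phagocytosis, was seen in all 47 cells (1 to 44 UMIs, median 17) at 511 CPM, beside 288 in CKO Ecscr-zero cells and 295 in CKO endothelium.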
